A study of Mus musculus with 4 samples.

Results

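Major histocompatibility complex (MHC) class II molecules and their master regulator Ciita were followed through 9 genes in bulk RNA of lamina propria mononuclear cells, the leukocyte-rich fraction of the connective tissue under the gut epithelium. The genes were chosen by name as the class II chains H2-Aa, H2-Ab1 and H2-Eb1, the invariant chain Cd74, the peptide editors H2-DMa, H2-DMb1, H2-Oa and H2-Ob, and Ciita. They are 9 of the 48526 gene identifiers in the table, and all 9 had a mean of at least 4 on the scale used and entered the test, among 13528 genes in all. All 4 samples came from mice with transferred CD4 T cells. One group of 2 received wild-type cells and had colitis that was labelled pronounced. The second group of 2 received cells without Hobit and Blimp-1, repressors of transcription that act in lymphocytes resident in tissue, and had colitis labelled mild. The groups are named wild type and DKO (double knockout) here, after the genotype of the transferred cells and not that of the host. The sources used here do not give the strain, age or sex of the hosts, or which cells they lacked. Genotype of the transferred cells and severity of colitis go together in this design and cannot be told apart. The comparison asks how the class II machinery of the inflamed mucosa differs between these transfers.

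MHC class II molecules present peptides from endosomes to CD4 T cells. An alpha and a beta chain pair in the endoplasmic reticulum with the invariant chain, which blocks the groove and is cut away in endosomes, after which H2-DM helps to exchange the remaining fragment for peptides. H2-O restrains H2-DM, mainly in B cells and some dendritic cells. Dendritic cells, macrophages and B cells carry most of the class II of the mouse gut, and interferon gamma induces it in other cells through Ciita, a coactivator that does not bind DNA itself but is held at class II promoters by the RFX complex, CREB and NF-Y. These factors sit on a conserved pair of elements, the X box and the Y box.

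The promoter elements are shown because they are the point at which Ciita meets its targets. Of the 9 genes 6 had an entry in the RefSeq promoter table (GRCm38.p6), whose windows run from 250 bases before to 50 bases after a start. Motifs were searched on both strands. The Y motif was ATTGG, the core of the Y box that NF-Y binds, which reads CCAAT on the other strand. The X motif was AGNAAC, from the part of the X box bound by RFX. An extended X motif, which contains the X motif, required ATG after any 2 further bases. The stretches below hold 45 bases before and 15 bases after the Y motif on the gene's strand, with the Y motif and the X motif or its extended form in capitals. H2-DMb2, a second beta gene of H2-DM outside the 9, is added for comparison.
H2-Aa: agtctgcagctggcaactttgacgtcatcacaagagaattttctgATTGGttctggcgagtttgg
H2-Eb1: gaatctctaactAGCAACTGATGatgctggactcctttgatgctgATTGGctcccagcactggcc
H2-DMb1: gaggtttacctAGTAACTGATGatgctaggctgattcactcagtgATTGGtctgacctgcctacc
H2-DMb2: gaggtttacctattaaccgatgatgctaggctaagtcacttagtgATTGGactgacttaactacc
H2-Oa: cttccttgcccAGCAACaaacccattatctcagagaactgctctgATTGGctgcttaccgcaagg
H2-Ob: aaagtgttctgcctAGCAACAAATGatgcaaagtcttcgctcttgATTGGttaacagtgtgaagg
The stretches lie at chr17:34287852-34287916 (minus strand) for H2-Aa, and on the plus strand at chr17:34305763-34305827 for H2-Eb1, chr17:34153085-34153149 for H2-DMb1, chr17:34145114-34145178 for H2-DMb2, chr17:34092291-34092355 for H2-Oa and chr17:34238803-34238867 for H2-Ob.

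The X and Y motifs had nearly the same spacing in the genes that held them as a pair on the same strand. Pairs were sought only at gaps of 10 to 30 bases. The Y motif began 48 bases before the start in H2-Aa, 59 in H2-Eb1, 61 in H2-DMb1, 43 in H2-Oa and 57 in H2-Ob. The X motif stood upstream of it on the same strand in H2-Eb1, H2-DMb1, H2-Oa and H2-Ob, with 27, 28, 28 and 25 bases between the motifs. Such a pair, at a gap of 10 to 30 bases, was found in 1.17% of the 32851 promoters in the table, the Y motif, with or without the X motif, in 37.4% and the X motif, likewise, in 48.1%. The extended X motif, present in H2-Eb1, H2-DMb1 and H2-Ob, was in 0.895% of promoters. Neither of the promoter windows listed for H2-DMa held the pair, and 1 had no match. In the other the Y motif began 198 bases before the start, and an X motif was on the opposite strand near the start. The stretches of H2-DMb1 and H2-DMb2 were identical at 56 of 65 positions, although the X motif was matched only in H2-DMb1. The stretch of H2-Aa reads ggcaac upstream of its Y motif, which differs from the X motif only in its first base and was not matched. These matches are letters in a window and do not show binding. A missing match to so strict a pattern does not show that an X box is absent.

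In the annotation of GRCm38, 7 of the 9 genes lie within 224 kb of chromosome 17, from 34092340 (H2-Oa) to 34316674 (H2-Eb1). Cd74 lies on chromosome 18 (60803848 to 60812652) and Ciita on chromosome 16 (10480059 to 10528418). Brd2 overlaps the start of H2-DMa, Dexi overlaps Ciita, and the antisense genes Gm20513 and BC051537 overlap H2-Eb1 and H2-Oa, all on the opposite strand. The microRNA gene Mir5107 (rlog 4.72 to 5.34) overlaps Cd74 on the same strand, where strand does not separate their reads. The libraries were stranded per the labels, but the sources used here do not say whether strand was used in counting.

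The values are regularized log2 expression (rlog) as deposited, a log2 scale on which differences of genes with few reads are pulled towards 0. The depth of each sample is unknown, and each of the 4 samples had a median over tested genes of 8.33 to 8.35. Differences are DKO minus wild type, with the standard error (SE), the 95% interval and the Benjamini-Hochberg adjusted p of limma fitted to all 13528 tested genes, and a gene is said to have risen or fallen where that p was under 0.05. With 2 samples a group an exact permutation test of a single value cannot go below p = 0.333 (two-sided). In RNA of a mixed population, fewer cells of a type and less RNA per cell cannot be told apart. T cell and myeloid markers were present as the label implies, such as Cd3e at 10.59 to 11.04 and Csf1r at 12.50 to 13.12. RNA of other compartments was present as well, such as the fibroblast gene Dcn at 12.54 to 13.73 and the epithelial keratin Krt8 at 12.29 to 12.47.

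The class II genes differed little between the groups. The chains, the invariant chain and both H2-DM genes were 1.16 to 1.25 times lower in the DKO samples, while H2-Oa, H2-Ob and Ciita had differences between 0.0039 and 0.17. Of the 9 genes 1 fell, H2-DMb1, and 0 rose, against 14.8% of all tested genes called in either direction (4.85% lower and 9.92% higher). At an unadjusted p under 0.05 there were 3, namely H2-Ab1, H2-DMa and H2-DMb1, against 3577 of all 13528 tested genes. The 2 DKO values lay below both wild-type values in 6 of the 9 genes and above them in 0. Among all tested genes, groups without overlap made up 55.3%, and those with DKO below 30.3%. The median difference of the 9 genes was -0.24, against -0.022 over all tested genes.

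**Figure D1:**
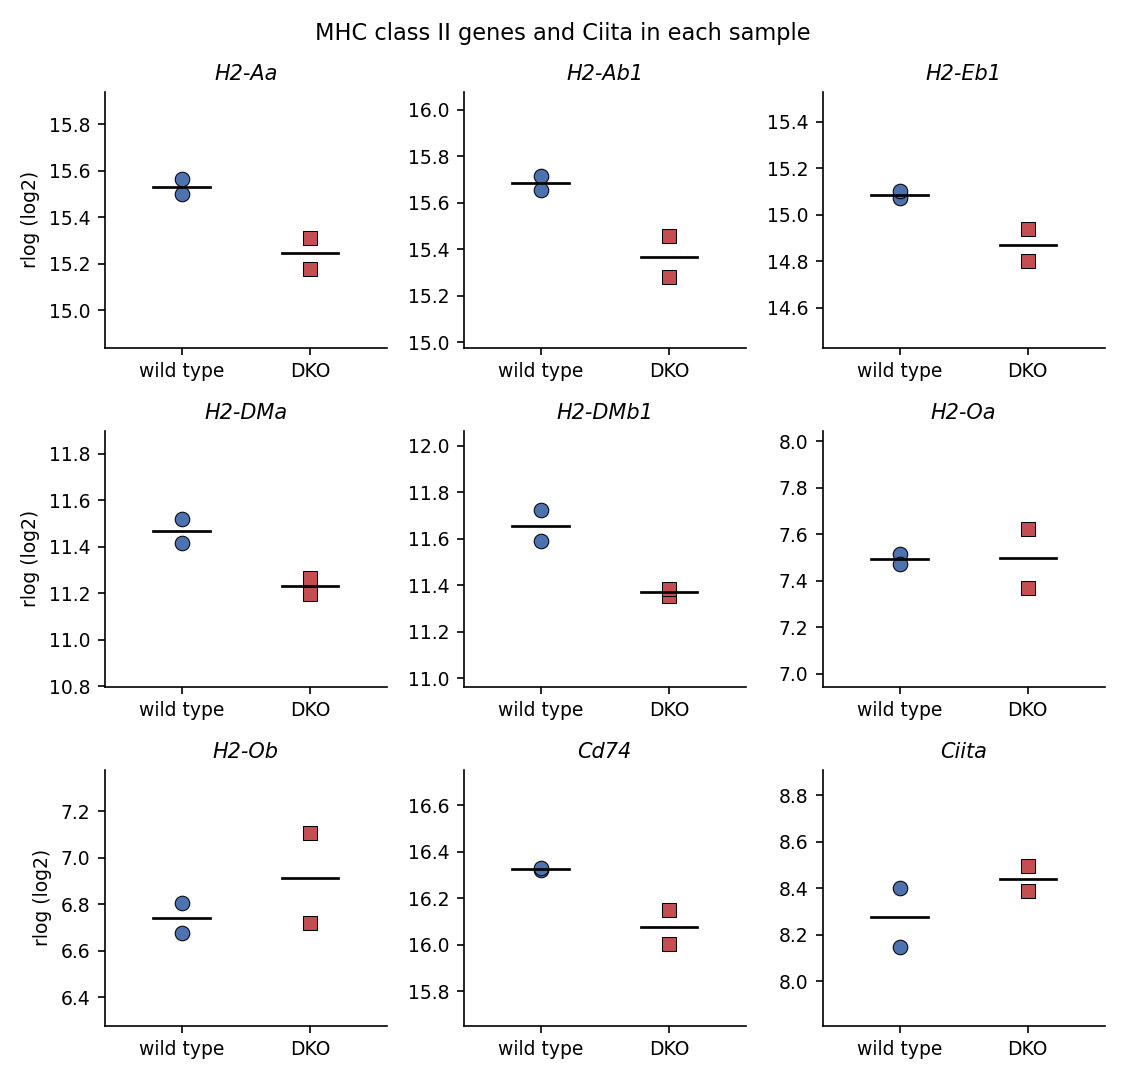
Deposited rlog values (log2) of each of the 9 genes by group, with circles for the 2 wild-type samples, squares for the 2 DKO samples and a line at each group mean. Every panel spans the same range of log2 units. The groups are apart for H2-Aa, H2-Ab1, H2-Eb1, H2-DMa, H2-DMb1 and Cd74 and overlap for H2-Oa, H2-Ob and Ciita.

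The classical chains form the peptide groove. H2-Aa, the alpha chain of I-A, was at 15.50 and 15.56 in wild type and at 15.18 and 15.31 in DKO. Both DKO samples were lower, and DKO replicate 1 was the lowest. The difference of -0.29 (SE 0.137, 95% interval -0.59 to 0.015) did not pass in limma (adjusted p = 0.214). H2-Ab1, the beta chain of I-A, stood at 15.66 and 15.72 against 15.28 and 15.46. It had the largest difference of the 9 genes, -0.32 (SE 0.143, 95% interval -0.63 to -0.0033), a level 1.25 times lower in DKO, and did not pass after adjustment in limma (adjusted p = 0.184). The alpha and beta genes of I-A kept almost the same distance in every sample, H2-Aa minus H2-Ab1 being -0.16, -0.15, -0.10 and -0.14.

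H2-Eb1, the beta chain of I-E, was at 15.07 and 15.10 in wild type and at 14.80 and 14.94 in DKO. The groups did not overlap, and the difference of -0.21 (SE 0.126, 95% interval -0.49 to 0.063) did not pass in limma (adjusted p = 0.321). Its alpha partner, annotated as H2-Ea-ps because the reference strain has no functional copy, was between -1.50 and -1.47 in the 4 samples, below the minimum for testing. Some mouse haplotypes, that of C57BL/6 among them, transcribe the I-E beta chain without an alpha chain. H2-Eb2, a second beta gene beside H2-Eb1, was low, at 5.34 and 5.32 in wild type and 5.60 and 5.47 in DKO. Its difference was positive and did not pass in limma (0.20, SE 0.113, adjusted p = 0.291).

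Cd74, the invariant chain, was at 16.32 and 16.33 in wild type and at 16.00 and 16.15 in DKO. The wild-type samples were close to each other, and the DKO samples lay below them and further apart. The difference was -0.25 (SE 0.162, 95% interval -0.61 to 0.11, adjusted p = 0.37 in limma). For the classical chains and Cd74 the upper bound of the interval is a level 1.41 to 1.55 times lower in DKO, so larger falls lie outside it. The SE of these genes is wider than the spread of their own samples because the fit draws on other genes of like level.

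The H2-DM genes encode the heterodimer that edits peptides. H2-DMb1 was at 11.59 and 11.72 in wild type and at 11.35 and 11.38 in DKO. All values of DKO were lower, and it was the 1 gene of the 9 that fell in limma (-0.29, SE 0.083, 95% interval -0.47 to -0.10, adjusted p = 0.0403), to a level 1.22 times lower. The call was lost without wild-type replicate 1 (-0.35, adjusted p = 0.0741) and without wild-type replicate 2 (-0.22, adjusted p = 0.401). It was also lost with quantile normalization (-0.21, adjusted p = 0.122), without the variance trend (adjusted p = 0.0822) and with no minimum level (adjusted p = 0.172). H2-DMa, its partner, was at 11.41 and 11.52 against 11.20 and 11.26. It did not pass in limma (-0.24, SE 0.0813, adjusted p = 0.0818), but did without DKO replicate 2 (-0.27, adjusted p = 0.035).

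H2-DMb2, the neighbouring copy of the beta gene, was at 8.16 and 8.41 in wild type and at 8.50 and 8.44 in DKO, with a difference of 0.19 that did not pass in limma (SE 0.105, adjusted p = 0.302). The distance between the copies, H2-DMb1 minus H2-DMb2 on the rlog scale, was 3.43 and 3.31 in wild type and 2.85 and 2.94 in DKO. The groups did not overlap in this distance, which was picked after the values were seen and is given without a test. The copies are similar in sequence, and reads that fit both could be assigned to either or dropped, so values of each are uncertain to that extent.

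H2-O, the inhibitor of H2-DM, had overlapping groups for both chains. H2-Oa, the alpha chain, was at 7.52 and 7.47 in wild type and at 7.62 and 7.37 in DKO, so that the DKO samples lay on either side of the wild-type samples (difference 0.0039, SE 0.114, 95% interval -0.25 to 0.26, adjusted p = 0.989 in limma). H2-Ob, the beta chain, was at 6.81 and 6.68 against 7.11 and 6.72. Only DKO replicate 1 was higher than both wild-type samples. The difference of 0.17 (SE 0.137, adjusted p = 0.476 in limma) was -0.020 without DKO replicate 1, and that of H2-Oa was -0.12. The mean of the H2-DM genes minus the mean of the H2-O genes was 4.34 and 4.55 in wild type and 3.91 and 4.28 in DKO, lower in both DKO samples by 0.35 on average. This distance was picked after the values were seen and is given without a test.

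Ciita, whose protein drives transcription of the class II chains, the invariant chain and H2-DM, had no lower mean in DKO. It was at 8.40 and 8.15 in wild type and at 8.50 and 8.39 in DKO. Wild-type replicate 2 was the lowest, and wild-type replicate 1 lay between the DKO samples. The difference of 0.17 (SE 0.107, 95% interval -0.070 to 0.40) did not pass in limma (adjusted p = 0.369), and was 0.039 without wild-type replicate 2. The mean of H2-Aa, H2-Ab1 and H2-Eb1 minus Ciita was 7.01 and 7.31 in wild type and 6.59 and 6.85 in DKO. The chains were thus lower relative to Ciita in both DKO samples, a distance also picked with the values in view and not tested.

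**Figure D2:**
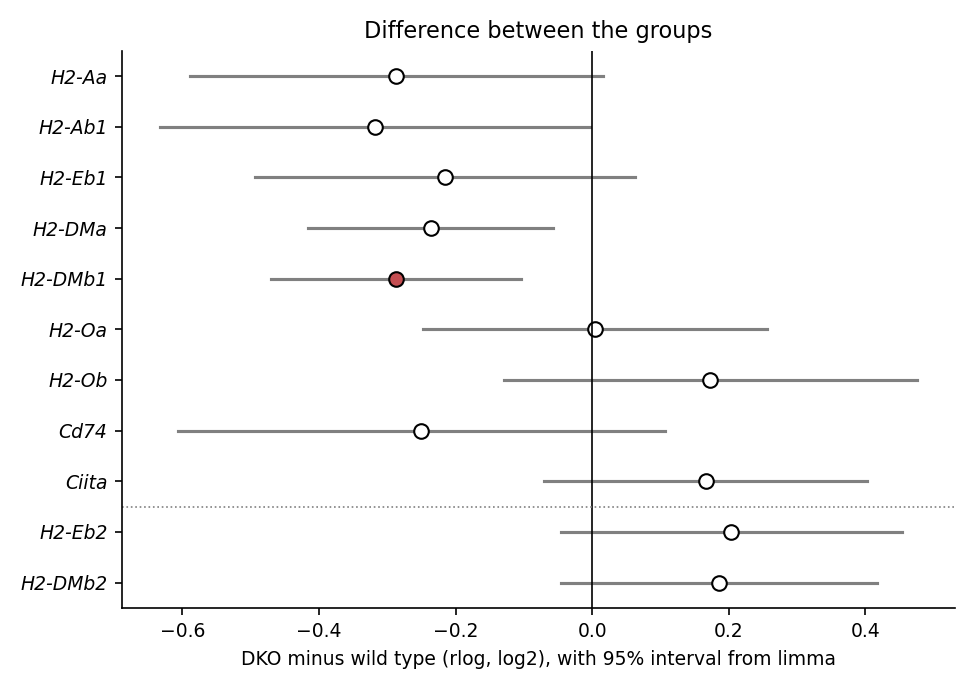
Difference DKO minus wild type on the rlog (log2) scale with its 95% interval from limma, for the 9 genes (above the dotted line) and for H2-Eb2 and H2-DMb2. The filled circle marks the 1 gene with an adjusted p under 0.05, H2-DMb1, and the intervals of H2-Ab1, H2-DMa and H2-DMb1 lie below 0 before adjustment.

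Levels can be set between genes per length, as rlog minus the log2 of the length of all annotated exons in kilobases. On that scale the mean over the wild-type samples was 15.58 for Cd74, 14.33 for H2-Ab1, 14.13 for H2-Eb1 and 13.61 for H2-Aa. The editors followed at 10.91 for H2-DMb1 and 9.68 for H2-DMa, then H2-DMb2 at 7.48 and H2-Oa at 7.0. Ciita (5.02), H2-Ob (4.31) and H2-Eb2 (3.57) were lowest. The order was the same in all 4 samples. With the length of the longest transcript, an alternative added after the data were seen, the order was also the same, but H2-Ab1 stood at 15.41, so the distances within the upper group depend on the gene model.

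**Figure D3:**
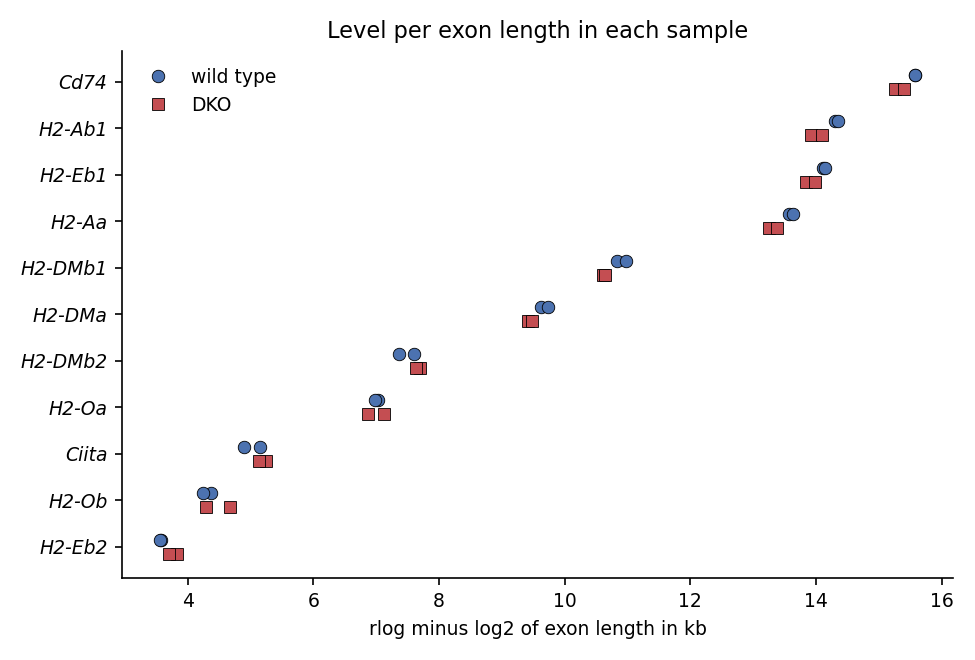
Level per exon length (rlog minus log2 of exon length in kilobases) of the 9 genes, H2-DMb2 and H2-Eb2, with circles for the wild-type samples and squares for the DKO samples. Cd74 is highest at a wild-type mean of 15.58, the H2-DM genes stand between 9.68 and 10.91, and Ciita and H2-Ob are near 5.02 and 4.31.

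Genes of the machinery around class II were read from lists chosen with earlier results of these data known. Listed as transcription partners were 10 genes, namely those that hold or assist Ciita at promoters and its relative Nlrc5. Of these 0 passed in limma and 0 had an unadjusted p under 0.05, with a median difference of -0.062. Over all tested genes 14.8% passed, and 3577 of 13528 had an unadjusted p under 0.05. Rfx5, Rfxap and Rfxank, the subunits of RFX, differed by -0.094, -0.22 and 0.0074 (adjusted p = 0.576, 0.291 and 0.979). Rfxap passed without DKO replicate 2 (-0.40, adjusted p = 0.0112). Nlrc5, which acts on class I genes, differed by 0.17 (adjusted p = 0.25 in limma), and by 0.25 without DKO replicate 2, where it passed (adjusted p = 0.0448).

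Of 12 genes upstream of Ciita 2 fell and 0 rose, beside 4.85% of all tested genes lower and 9.92% higher. Spi1, which encodes the myeloid factor PU.1, was at 11.16 and 10.97 in wild type and 10.37 and 10.60 in DKO (-0.58, SE 0.0988, adjusted p = 0.00204 in limma). Ifngr2, a chain of the interferon gamma receptor, was at 9.61 and 9.65 against 9.38 and 9.31. It fell by 0.29 (SE 0.0809, adjusted p = 0.0361 in limma), a call that ended when wild-type replicate 1, wild-type replicate 2 or the second DKO sample was left out (adjusted p = 0.135, 0.241 and 0.0637). Ifng, the cytokine itself, was at 12.42 and 12.57 in wild type and 12.76 and 12.72 in DKO (0.24, adjusted p = 0.11 in limma), and passed as higher with quantile normalization (0.34, adjusted p = 0.0279). Irf1, a factor induced by interferon gamma that acts on the Ciita gene, differed by 0.033 (adjusted p = 0.872 in limma).

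The endosomal processing list holds proteases that act on the invariant chain or on antigens, the reductase Ifi30, and the cystatins Cst3 and Cst7, which inhibit proteases. Of 10 genes 5 fell and 0 rose, beside 4.85% of all tested genes lower, and the median difference was -0.29. Ctss, the protease that removes the last part of the invariant chain in many antigen-presenting cells, was at 14.28 and 14.30 in wild type and 13.70 and 13.88 in DKO (-0.50, SE 0.111, adjusted p = 0.00973 in limma). Ctsd fell by 0.45, Ctsc by 0.41, Ctsh by 0.33 and Ifi30, which reduces disulfide bonds of antigens, by 0.34. The cystatins had overlapping groups, with differences of 0.011 for Cst3 and -0.080 for Cst7 (adjusted p = 0.959 and 0.773 in limma). Lgmn, which starts invariant chain cleavage, differed by -0.25 (adjusted p = 0.0916 in limma) and passed without DKO replicate 2 (adjusted p = 0.0242). Ctsb differed by -0.23 (adjusted p = 0.192), also passing there (adjusted p = 0.0491).

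These falls depended on single samples and on scaling. In limma 2 of the 10 fell without wild-type replicate 1, 1 without wild-type replicate 2, 4 without DKO replicate 1 and 7 without DKO replicate 2. With quantile normalization 1 fell, and with no minimum level 0. Ctsd fell in each fit without a sample, though by 0.29 without DKO replicate 1. Many of these proteases are lysosomal enzymes of macrophages in general.

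Turnover of class II at the surface is set by ubiquitin ligases. March1, which marks class II for lysosomes in dendritic cells and B cells, was at 9.32 and 9.31 in wild type and 8.62 and 8.62 in DKO. It fell by 0.70 (SE 0.0832, adjusted p = 0.000196 in limma) and passed in all 11 alternative fits. March8, a related ligase of wider expression, was at 8.01 and 7.98 against 8.50 and 8.32, and rose by 0.41 (SE 0.0994, adjusted p = 0.0161). The call needed each wild-type sample and the first DKO sample, since it ended when any of these was left out (adjusted p = 0.0531, 0.0871 and 0.0647). Cd83, which counters March1 in dendritic cells, overlapped between the groups (0.051, adjusted p = 0.833 in limma).

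Of 6 costimulatory and inhibitory ligands of antigen-presenting cells 1 fell and 0 rose, beside 4.85% of all tested genes lower and 9.92% higher. That gene was Cd80 (-0.29, SE 0.0846, adjusted p = 0.0391 in limma). Its call likewise ended when wild-type replicate 1, wild-type replicate 2 or DKO replicate 1 was left out (differences of -0.24, -0.34 and -0.23). Cd86 and Cd40 differed by -0.10 and 0.13 (adjusted p = 0.502 and 0.336). The genes for the T cell proteins that bind class II, Cd4 and Lag3, differed by -0.085 and 0.084 (adjusted p = 0.602 and 0.758 in limma).

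Among 9 other genes of the class II region and its flanks 0 fell and 1 rose, near the 9.92% of all tested genes that rose. That gene was Notch4 (0.67, SE 0.121, adjusted p = 0.00271 in limma), a receptor of endothelium, beside 8 of 8 endothelial markers that rose. Psmb8 and Tap2, which serve class I and lie between class II genes, differed by -0.18 and -0.14 (adjusted p = 0.2 and 0.373).

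**Figure D4:**
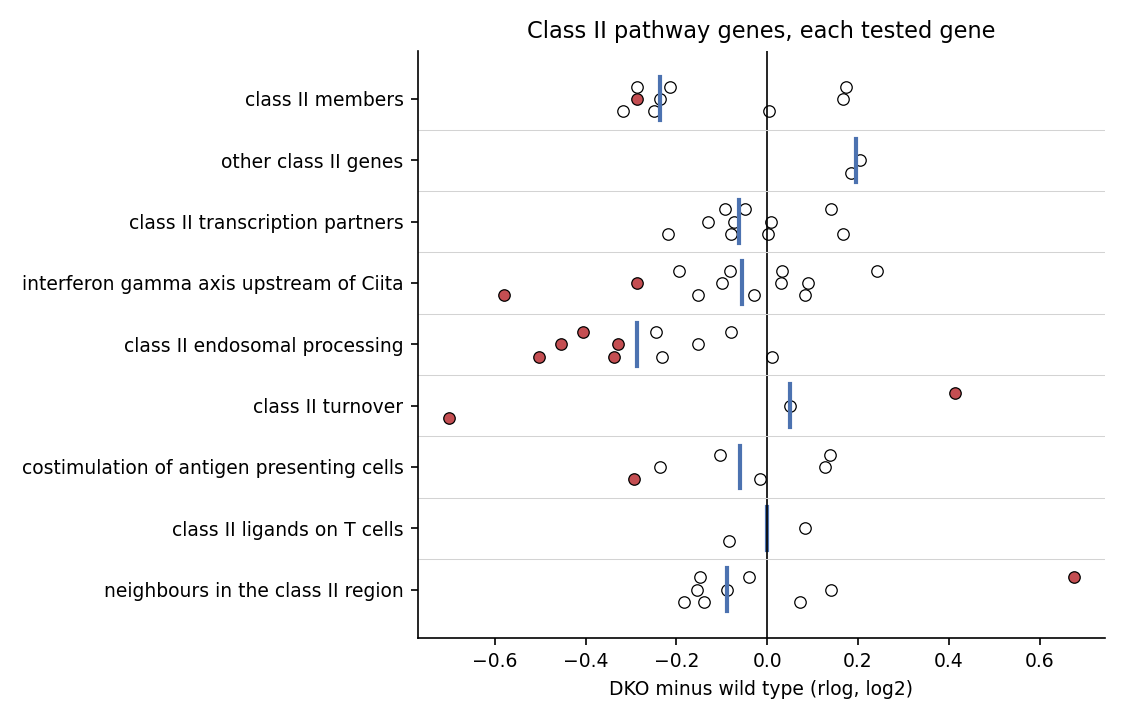
Difference DKO minus wild type (rlog, log2) of each tested gene in the class II lists, with filled circles for an adjusted p under 0.05 in limma and a vertical bar at each list's median. Of the endosomal processing genes 5 of 10 are filled, all lower, against 1 of the 9 class II genes.

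Markers of the cells that carry class II differed in unlike ways beside these values. For the counts that follow, the shares of all tested genes are again 4.85% lower and 9.92% higher. At an unadjusted p under 0.05 there were 3577 of 13528 tested genes. Of 11 tested resident macrophage markers 8 fell and 0 rose, with a median difference of -0.41, and the log2 of their summed level was 14.78 and 14.75 in wild type and 14.21 and 14.42 in DKO. Examples are the complement gene C1qb (-0.50, SE 0.0885, adjusted p = 0.00247 in limma), Fcgr1 (-0.48) and Csf1r (-0.41). In limma 3 fell without wild-type replicate 1, and with no minimum level 0. The call of Fcgr1 was lost when wild-type replicate 1 was left out (adjusted p = 0.0616), and that of Csf1r when wild-type replicate 1 or the first DKO sample was (adjusted p = 0.204 and 0.0668). Of 8 monocyte markers 4 fell and 1 rose (summed level 14.57 and 14.52 against 14.46 and 14.32). The class II genes had a log2 summed level of 17.75 and 17.79 against 17.43 and 17.58.

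Dendritic cell markers differed from list to list. Of 7 markers of type 1 conventional dendritic cells 0 passed in limma (2 had an unadjusted p under 0.05), with a median of 0.23. Summed levels were 11.04 and 11.22 in wild type and 11.21 and 11.38 in DKO. The largest part of these sums was Itgae (10.12 and 10.51 against 10.42 and 10.67), whose difference was also the median. Xcr1, Batf3 and Wdfy4 differed by 0.069, 0.060 and -0.0017. Clec9a, Tlr3 and Cadm1 differed by 0.23, 0.28 and 0.27. Of 7 type 2 markers 1 rose and 1 fell, Mgl2 (0.58) and Sirpa (-0.46), the second of which macrophages also express (summed levels 13.37 and 13.38 against 13.10 and 13.24). Sirpa had the highest values of this list, followed by Itgax and by Epcam, which is also among the epithelial markers. Leaving out wild-type replicate 1 or the first DKO sample ended the call of Mgl2 (0.51 and 0.35, adjusted p = 0.0808 and 0.11 in limma). Of 7 shared dendritic cell markers 2 rose and 1 fell. Kit, which mast cells also express, rose by 0.71 (adjusted p = 0.000349 in limma), and Ffar2, a receptor for short-chain fatty acids, fell by 0.46 (adjusted p = 0.0117), but not without wild-type replicate 2 (-0.38, adjusted p = 0.128). Zbtb46, a transcription factor of dendritic cells that endothelium also expresses, rose by 0.30 (adjusted p = 0.0453 in limma), but not when either wild-type sample or the second DKO sample was left out (adjusted p = 0.103, 0.295 and 0.115). The summed levels of this list, Kit included, were 12.44 and 12.41 against 12.62 and 12.69.

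Of 8 mature dendritic cell markers 1 rose (summed levels 13.47 and 13.51 against 13.43 and 13.61). Of 7 plasmacytoid markers 1 rose and 2 fell (12.32 and 12.34 against 12.31 and 12.29). Tcf4 rose by 0.38 and Ccr9 fell by 0.43 (adjusted p = 0.00929 and 0.0191 in limma). Siglech fell by 0.78 (adjusted p = 0.0135 in limma), and by 0.44 without DKO replicate 2. Its call was lost with the robust variance estimate (adjusted p = 0.0523).

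Several defining B cell genes were at or near 0 in all 4 samples. Pax5 was listed at 0, and Ms4a1, Cd79a, Fcer2a and Cr2 were below 0 on the rlog scale in every sample. Blk (3.62 to 4.01), Bank1 (3.54 to 4.16) and Fcrla (2.26 to 2.47) lay above 0, with means below the minimum for testing. The B cell markers that were tested were Cd22, Spib, Cd79b and Ebf1, genes that other cells also express. Of these 4, Ebf1, which stromal cells express, rose (0.61, adjusted p = 0.00324 in limma), and Spib differed by -0.35 (adjusted p = 0.051), passing with quantile normalization (-0.48, adjusted p = 0.0141), without the variance trend (0.0275), with the robust variance estimate (0.046) and with median centring (0.048). The log2 summed level of the B cell list was 8.41 and 8.33 in wild type and 8.34 and 8.37 in DKO. H2-O was thus measured in samples in which Pax5 and Ms4a1 were at or below 0.

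Neutrophil, stromal and endothelial lists had medians larger in size than that of the class II genes. Of 10 neutrophil markers 10 fell (median -1.46, summed levels 15.86 and 15.94 against 14.75 and 14.28). Of 9 fibroblast and smooth muscle markers 9 rose (median 0.92, summed levels 14.89 and 14.76 against 15.89 and 15.72), and of 8 endothelial markers 8 rose (median 1.24). Endothelial summed levels were 11.50 and 11.31 against 12.29 and 12.39. Of 10 T cell markers 1 fell and 0 rose (median -0.14), and of 9 epithelial markers 1 rose and 0 fell. Of 3 tested plasma cell markers 1 fell, Sdc1, and 0 rose. Jchain (2.04 to 2.52) and Mzb1 (2.19 to 2.40) had means below the minimum for testing, and Tnfrsf17 was listed at 0. Of 8 markers of group 3 innate lymphoid cells 0 passed in limma (1 had an unadjusted p under 0.05). The part of these differences in the values of the class II genes was not tested.

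**Figure D5:**
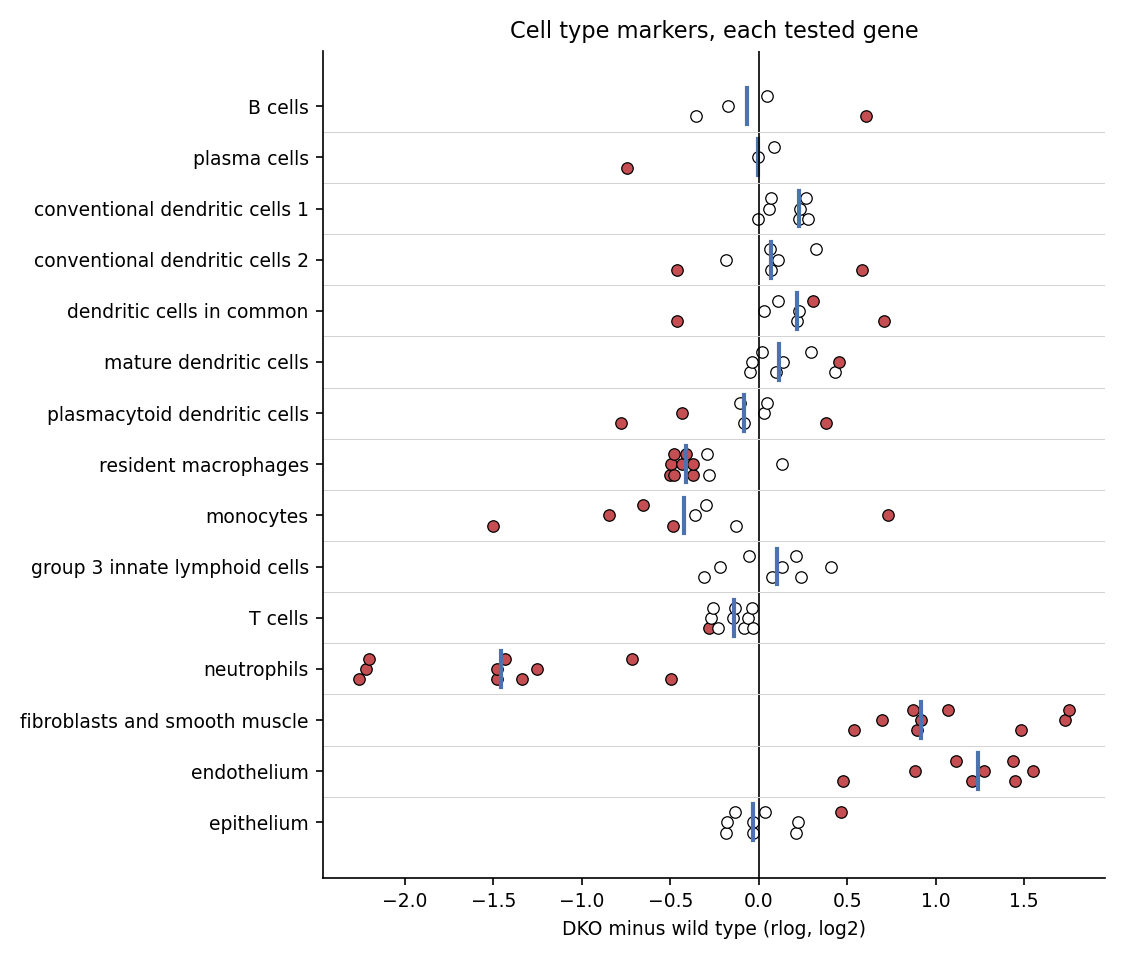
Difference DKO minus wild type (rlog, log2) of each tested marker in 15 cell type lists, with filled circles for an adjusted p under 0.05 in limma and a vertical bar at each list's median. Resident macrophage markers have a median of -0.41. Type 1 conventional dendritic cell markers have a median of 0.23, with 0 called. Type 2 markers have a median of 0.072, with 1 called higher and 1 lower.

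The genes most like the class II chains across samples were sought by the root mean square distance of centred rlog over the 4 samples from the mean of H2-Aa, H2-Ab1, H2-Eb1 and Cd74. The nearest were Naaa (distance 0.00646, difference -0.27), Fxyd5 (0.008, -0.25), Ascc1 (0.00883, -0.28), Slc1a2 (0.00931, -0.26) and Shtn1 (0.00963, -0.28). The chains themselves lay at 0.014 to 0.028. In all 453 other genes were within 0.05, so the profile is a common one. The nearest to Ciita were Tram2 (0.00785), Gm12250 (0.0121), Gramd1b (0.0194), Acvrl1 (0.021) and Tmem198b (0.0227), with 164 genes within 0.05. A likeness over 4 samples is a description only.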

How the data were processed

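Stranded mRNA libraries of lamina propria mononuclear cells from 4 samples, 2 a group, were grouped by the treatment in the labels. The series text speaks of biological replicates but names no animals: p-values rest on the spread between the samples only. The log2 values are rlog of DESeq2 as deposited by the authors, per the table's name. Per the submitters' processing notes, the build was GRCm38 and the tools included STAR 2.5.4a, BWA 0.7.14-r1136, featureCounts (Subread 1.5.2), cutadapt 1.9.1 and bcl2fastq 2.17.1.14. The sources used here give no roles, parameters or annotation release. The 2 columns of no labelled sample were not used, but may have entered the shrinkage. Counts were not analysed here, so depth is unknown.

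Of 48526 identifiers 48058 matched a GENCODE M21 symbol and position. Genes whose mean rlog reached 4, 13528 in all, were fitted in limma 3.58.1 (R 4.3.3) with group as the only term, empirical Bayes with a mean-variance trend (8.9 prior and 2 residual degrees of freedom), two-sided tests and Benjamini-Hochberg adjustment. The code was tested on simulated data. Alternatives were no minimum, a minimum of 6, no trend, robust variance, median centring, quantile normalization, sample weights and leaving out each sample. Summed levels are log2 of summed 2-to-the-rlog values. Members, lists and tests were chosen with earlier results of these data known. Named are all members, called genes of the pathway lists and up to 3 others per list with the smallest p, up to 3 markers per cell list by p or by level, the 5 genes nearest in profile, and others that were picked after their values were seen. Figures were drawn with matplotlib 3.10.9 in Python 3.11.15.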

Additional observations from a re-analysis of the deposited data

How the results depend on the processing

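No paired analysis was possible because the labels carry no replicate numbers. Fits without a sample leave 1 sample in its group, whose spread is taken from the other group. The differences of H2-Aa, H2-Ab1, H2-Eb1, H2-DMa, H2-DMb1 and Cd74 were below 0 and that of Ciita above 0 in all 11 alternatives. The changes of minimum level, trend, robust variance and sample weights left these differences as they were, so their sign could not change there. For genes whose groups did not overlap, leaving out a sample could not change the sign either. Leaving out each sample in turn gave 1008 to 1660 genes higher and 324 to 1222 lower, 0 to 2 of the 9 class II genes lower, 1 to 7 endosomal processing genes lower, 3 to 9 resident macrophage genes lower, and differences of -0.35 to -0.22 for H2-DMb1, -0.29 to -0.18 for H2-DMa, -0.12 to 0.13 for H2-Oa, -0.020 to 0.37 for H2-Ob, -0.048 to 0.063 for Rfxank, -0.0070 to 0.030 for Cst3 and -0.27 to 0.11 for Cst7. The fit with all samples gave 1342 genes higher and 656 lower. With no minimum level, where genes of few reads enter the adjustment, 181 genes rose and 25 fell, and 0 class II, 0 endosomal processing and 0 resident macrophage genes fell (H2-DMb1 -0.29, adjusted p = 0.172). Of the genes said by name to have risen or fallen and followed through the alternatives, March1 alone passed there (adjusted p = 0.0449). Sdc1, Tcf4, Ccr9, Chil3, Ly6c2, S100a4, F10 and Fn1 were not followed through them. Ifngr2, Cd80 and Zbtb46 also lost their calls with quantile normalization and without the variance trend, Ifi30 likewise, and Ctss, Ctsh, Ctsc, Csf1r and Mgl2 with quantile normalization only among the changes of scaling or variance. With a minimum of 6, 878 genes rose. Without the variance trend 0 class II genes fell (H2-DMb1 -0.29, adjusted p = 0.0822). With quantile normalization 0 class II and 1 endosomal processing gene fell (H2-DMb1 -0.21, adjusted p = 0.122), with H2-Oa at -0.064 and Rfxank at -0.044. With median centring H2-Oa was at -0.0062 and Rfxank at -0.0027. The causes were not tested. Rlog values hold no depth, so differences of lower genes such as H2-Ob may be understated. Ciita was near the sample medians, and how far its difference was shrunk is unknown.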
